A study of Mus musculus with 12 samples.

Results

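Dexamethasone was compared with vehicle in the livers of female mice, on the 6 female arrays of a series of 12. The females were C57BL/6, 11 weeks old, adrenalectomized and in diestrus 1. In one group, 3 females received vehicle, phosphate-buffered saline. In the other, 3 females received dexamethasone, a synthetic glucocorticoid, at 1 mg/kg into the peritoneal cavity. Livers were taken 6 h later and kept in RNAlater, and 500 ng of total RNA from each animal was labelled with Cy3 for 1 single-colour Agilent whole-genome array. The other 6 arrays came from males of the same strain, age and surgery under the same pair of treatments, and entered the estimate of spread. Adrenalectomy removes the main source of an animal's own glucocorticoid in every group, so no group here had intact adrenal glands.

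Glucocorticoids enter the cell and bind the glucocorticoid receptor, a transcription factor that then moves to the nucleus. The receptor raises many genes by binding DNA as a pair at palindromic elements, and lowers others, among them inflammatory genes, partly by acting on other DNA-bound factors. In liver the hormone is known for raising glucose production and the breakdown of amino acids, for changing fat storage and for damping inflammation.

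Levels below are log2 processed signals minus the 75th percentile of their array, so 0 is the upper quartile of that array. Levels of different genes are not comparable, because each gene was read by its own probe. A fold change is the dexamethasone mean minus the vehicle mean on this log2 scale, given with its standard error (±) as limma estimated it, for n = 3 arrays per group. A gene is said to have risen or fallen where its p-value, adjusted by Benjamini and Hochberg over all genes tested, was below 0.05.

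The upper-quartile signal of the 6 female arrays was 822 to 1251 intensity units. The scanner software called 67.1 to 68.1% of probes well above background on the vehicle arrays and 71.4 to 71.8% on the dexamethasone arrays, with no overlap. The 3 arrays of a group did not match each other equally. Female dexamethasone 3 lay at least 2 log2 units above both other dexamethasone arrays for 55 of 14509 genes and below both for 42. For the other 5 female arrays these counts were 2 to 10 above and 0 to 25 below, with the 25 on female vehicle 2. Each slide held 4 arrays, and on the slides that carried both treatments the dexamethasone females came after the vehicle females in position. Over all slides the positions overlapped, at 2, 3 and 4 under vehicle and 3, 4 and 4 under dexamethasone, and their part in the results was not tested. Hepatocyte markers fitted the tissue label: all 11 tested were above background and 4 rose (1 when background was corrected by the normexp model), albumin (Alb) lay 8.98 to 9.24 log2 units above the upper quartile on the 6 arrays, and their summed level was 11.03 to 11.21 under vehicle and 11.38 to 11.51 under dexamethasone.

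Dexamethasone altered the level of about as many genes upward as downward, and the largest rises exceeded the largest falls. Of 19339 genes tested, 2644 changed (13.7%), of which 1313 rose (6.79%) and 1331 fell (6.88%). The median change over all genes was 0.02 on the log2 scale. A rise of at least 2-fold was found for 567 genes and a fall of that size for 582. At 4-fold or more there were 157 risers and 95 fallers, at 8-fold or more 48 and 17, and at 16-fold or more 16 and 6. The groups of 3 arrays overlapped for 6 of the risers and 6 of the fallers. Among all genes tested, 15.5% had all 3 dexamethasone arrays above all 3 vehicle arrays and 15.4% had them all below. Within slide 1 alone, which held 1 female array of each treatment, all 1313 risers were higher under dexamethasone and 1330 of the 1331 fallers were lower. Within slide 2 the counts were 1313 and 1331. These arrays were among those that made the calls, so these counts are no separate check. Over all genes tested 80.5% had the same direction within slide 1 and 84.9% within slide 2. With the slide as a fixed block in the model, 1681 of the 2644 calls were kept.

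The single arrays and the treatment of background set how many genes passed. Leaving out female vehicle 1 took the count to 1504, and female dexamethasone 2, female vehicle 3 and female dexamethasone 1 took it to 1703, 1742 and 1844. There were 1175 genes that kept their call in each of the 12 fits without 1 array, 604 risers and 571 fallers. With background corrected by the normexp model, which pulls dim signals together, 536 genes passed and 523 of the 2644 calls were kept. Under normexp the median change over all genes was 0.24 in place of 0.02, and 236 of the 2644 calls took the other sign. For many dim genes whose call ended under that setting this is therefore given below, singly or as a count over a list or run. Where nothing is said of normexp, the call did not necessarily hold there.

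**Figure D1:**
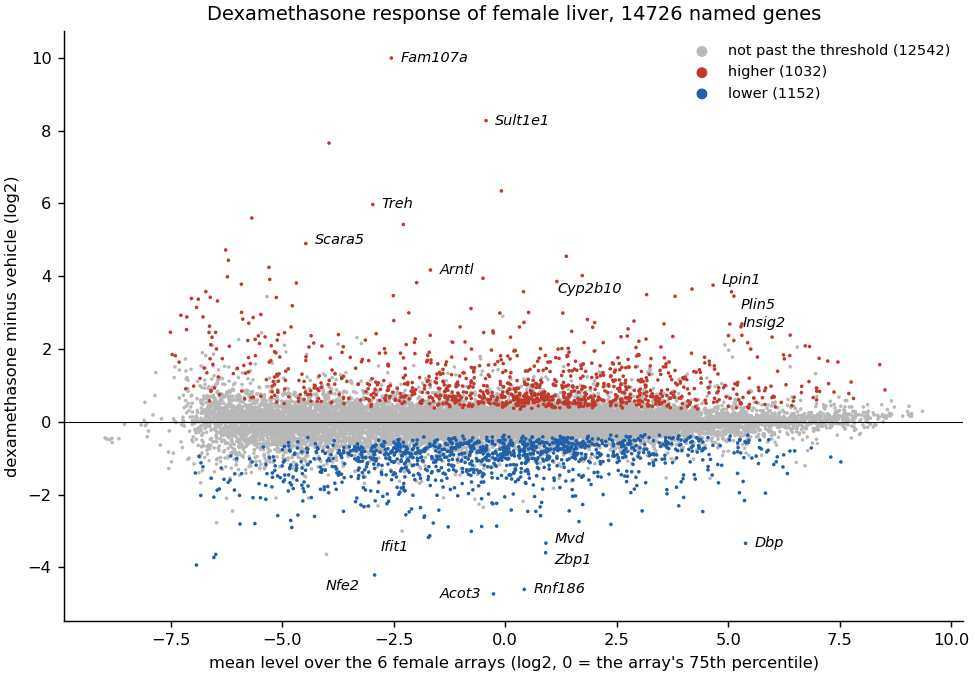
Change under dexamethasone (vertical axis, log2) against the mean level over the 6 female arrays (horizontal axis, log2, 0 is the upper quartile of an array) for the 14726 genes with a usable symbol. Each point is a gene, and 1032 named genes rose and 1152 fell. The points furthest from 0 lie above the line, and for genes below background in 1 group the plotted change depends on how near 0 the scanner software set that signal.

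Among the largest rises were genes of sugar, iron and lipid handling, a clock gene and a receptor chaperone. By the rule for naming genes, the 30 largest rises ran from 3.45 to 9.99 and the 30 largest falls from 2.47 to 4.73 in size. Of these, 9 risers and 4 fallers were not above background on any array of 1 female group. Their sizes depend on signals near background. The 9.99 was that of Fam107a, which is among those 9 and is given below as a bound. Of the 30 risers, 28 kept their call in all 12 fits without 1 array and 21 kept it under normexp. Of the 30 fallers these counts were 24 and 10.

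Treh encodes trehalase, which splits the sugar trehalose. Its levels were -7.56, -4.67 and -5.63 on vehicle arrays and -0.12, -0.85 and 1.02 on dexamethasone arrays. The groups did not overlap, and 2 of the 3 vehicle arrays were above background. The rise was 5.97 ± 0.68 (adjusted p = 0.000673), 5.17 without female vehicle 1 and 3.55 under normexp, and it passed in both. Scara5, a scavenger receptor that takes up ferritin, stood at -7.04, -5.63 and -8.08 under vehicle and at -2.20, -2.03 and -1.84 under dexamethasone. All dexamethasone values were higher, but only 1 vehicle array was above background. The rise was 4.90 ± 0.65 (adjusted p = 0.00146) and 2.37 under normexp. The Treh probe lies on chromosome 9 at 44620486 to 44620545 and the Scara5 probe on chromosome 14 at 60624531 to 60624590 (mm7, the build of the array design).

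Arntl, the clock activator also called Bmal1, had the smallest p-value of all named genes. Its levels were -3.91, -3.59 and -3.78 under vehicle and 0.24, 0.54 and 0.44 under dexamethasone. Both groups were tight and far apart, and the rise was 4.17 ± 0.16 (adjusted p = 9.85e-07). The probe lies on chromosome 7 at 109229489 to 109229548 (mm7). Fkbp5, a co-chaperone that restrains the glucocorticoid receptor, was at -0.91, 0.03 and -1.43 under vehicle and at 2.82, 3.00 and 3.44 under dexamethasone. No array of one group reached the other, and the rise was 3.86 ± 0.43 (adjusted p = 0.000595). The receptor's own gene, Nr3c1, was at 2.66 to 2.95 under vehicle and 2.36 to 2.98 under dexamethasone, a difference of -0.11 (adjusted p = 0.791) whose sign turned without female dexamethasone 3 (0.05).

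Lpin1, Plin5, Insig2 and Cyp2b10, which act in lipid and drug handling, were already above the upper quartile under vehicle and rose further. Lpin1, a phosphatidate phosphatase and coactivator, went from 2.92, 2.98 and 2.44 to 6.13, 6.41 and 7.06. Plin5, a lipid droplet coat protein, went from 3.15, 3.57 and 3.13 to 6.44, 6.77 and 7.37. Insig2 encodes a membrane protein that holds back the transcription factor SREBP. Its levels were 3.23, 3.90 and 3.07 under vehicle and 6.23, 6.67 and 7.66 under dexamethasone. In all 3 genes every dexamethasone array exceeded every vehicle array, and dexamethasone 3 was the highest. The rises were 3.75 ± 0.59 for Lpin1 (adjusted p = 0.00327), 3.57 ± 0.32 for Plin5 (adjusted p = 0.000215) and 3.45 ± 0.33 for Insig2 (adjusted p = 0.000317). Cyp2b10, a drug-metabolizing cytochrome P450, went from 1.52, 1.19 and 1.55 to 4.68, 4.61 and 5.45. The groups did not overlap, and the rise was 3.49 ± 0.26 (adjusted p = 9.28e-05). Of 22 genes of phase 1 and phase 2 drug metabolism, 2 rose (9.09%, beside 6.79% of all genes) and 1 fell.

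Of 26 known receptor targets tested, 15 rose and 1 fell, with a median of 1.53 beside 0.02 for all genes. Without 1 array 15 to 17 of them passed, and under normexp 12 did.

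Smaller rises with low spread were found for other genes. The sulfotransferase Sult1d1 rose by 2.23 ± 0.18, the flavin monooxygenase Fmo5 by 2.69 ± 0.22 and the serum amyloid Saa4 by 2.07 ± 0.16. Their adjusted p-values were 0.000139, 0.00016 and 0.000114. Mrap, an accessory protein of melanocortin receptors, rose by 2.69 ± 0.26 (adjusted p = 0.000326). The spread was wider for Myom3, a structural protein of the muscle sarcomere, which rose by 3.47 ± 0.64 (adjusted p = 0.00706) and by 2.81 without female dexamethasone 2.

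Female dexamethasone 3 stood far above its group for some genes. Gadd45b, a stress-induced gene, was at -1.35, -1.41 and -1.37 under vehicle and at 1.21, 0.86 and 4.52 under dexamethasone. All 3 dexamethasone arrays were higher, but dexamethasone 3 stood far above the other two. The rise was 3.58 ± 0.77 (adjusted p = 0.013) and 2.41 without dexamethasone 3 (adjusted p = 0.00353). With the 6 female arrays fitted alone its adjusted p was 0.0692 and it did not pass. Igfbp1, which binds insulin-like growth factors, was at 5.10, 3.39 and 3.11 under vehicle and at 4.86, 4.30 and 8.77 under dexamethasone. Here the groups overlapped, and the difference of 2.11 did not pass (adjusted p = 0.182).

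**Figure D2:**
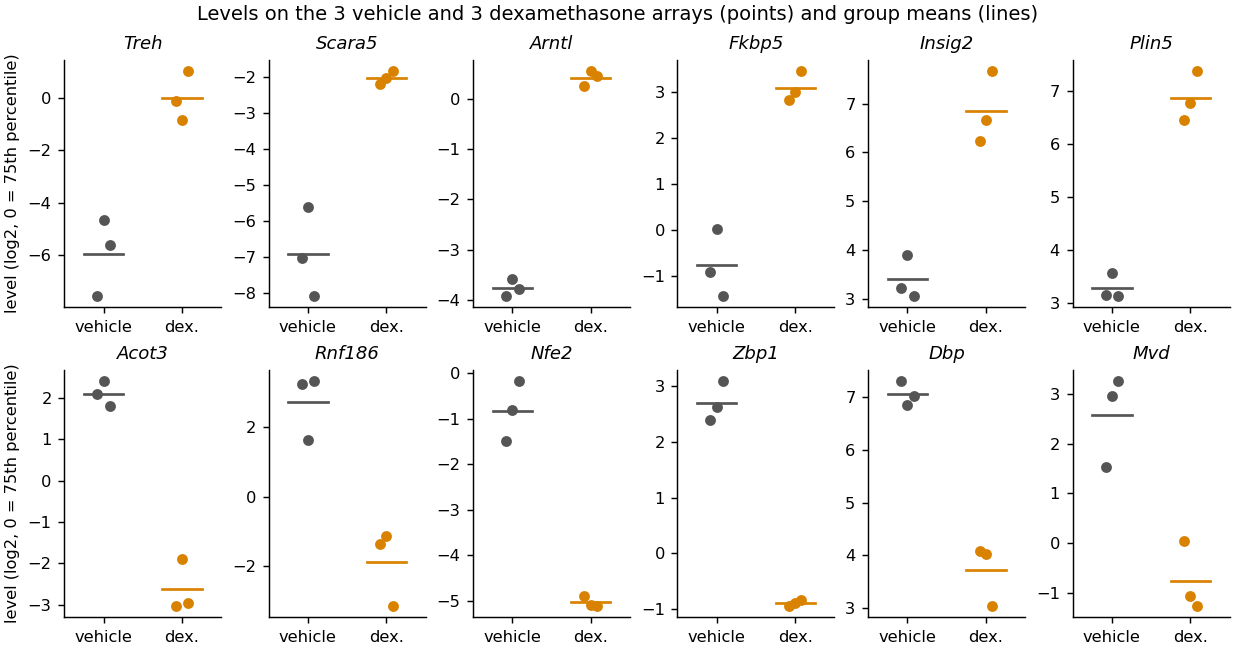
Levels of 12 genes on the 3 vehicle and 3 dexamethasone arrays of females (vertical axis, log2, 0 is the upper quartile of an array); points are arrays and lines are group means. The upper row shows Treh, Scara5, Arntl, Fkbp5, Insig2 and Plin5, which rose, and the lower row Acot3, Rnf186, Nfe2, Zbp1, Dbp and Mvd, which fell; in each panel the groups do not overlap.

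Detection differed between the female groups, and far more genes were gained than lost. On all 3 dexamethasone arrays and no vehicle array, 253 genes were above background (1.31% of those tested), and 80 of them rose. The reverse held for 14 genes (0.0724%), of which 9 fell. The lowest scaled signal called above background was -6.42, -6.62 and -6.33 on the vehicle arrays and -6.88, -7.04 and -6.99 on the dexamethasone arrays. On the male arrays the share of detected probes went the other way, at 70.4 to 70.6% under vehicle and 65.1 to 69.1% under dexamethasone. On the female dexamethasone arrays the lower floor and the higher share of detected probes go the same way as the excess of genes gained. Their part in it was not tested. For such genes the fold is given as a bound, the mean of the bright group over the higher of the floor and the probe's own signal on each dim array.

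Of 116 named genes gained, 45 rose. A bound of at least 2-fold was found for 31 of the 116, and 26 of those 31 rose. The selection, the bound and the call used the same female arrays, so they are not separate evidence. Slc10a6, a carrier of sulfated steroids, was at least 12.3-fold higher (adjusted p = 0.00327), and Atp6v0a4, a subunit of the proton pump V-ATPase, at least 11.9-fold higher (adjusted p = 0.000272). Slco4c1, an organic anion carrier known from kidney, was at least 4.67-fold higher (adjusted p = 0.00146). Several others are known from other tissues. Gad2 makes the neurotransmitter GABA and was at least 5.86-fold higher. Fez1, which acts in axon growth, was at least 8.18-fold higher and Greb1, an oestrogen-induced gene, at least 5.54-fold higher. Their adjusted p-values were 9.28e-05, 0.00792 and 0.0014. Tg, the thyroid hormone precursor thyroglobulin, was at least 3.18-fold higher (adjusted p = 5.05e-05), the T cell receptor partner Cd28 at least 4.14-fold higher (adjusted p = 0.000595) and the decoy interleukin receptor Il1r2 at least 3.96-fold higher (adjusted p = 0.00968). Under normexp the call of Atp6v0a4 held, and those of Gad2, Greb1, Slc10a6 and Fez1 ended, with adjusted p of 0.129, 0.198, 0.0941 and 0.171. Those of Slco4c1, Tg, Cd28 and Il1r2 ended too, with 0.259, 0.165, 0.212 and 0.25.

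Few genes were lost from detection. Of 8 named genes, 6 fell, and these 6 had a bound of at least 2-fold. Here too the selection, the bound and the call used the same female arrays. Spdef, a transcription factor, was at least 5.11-fold lower (adjusted p = 0.0234), and Tnfaip8l3, a lipid transfer protein, at least 4.93-fold lower (adjusted p = 0.0014). Rnf225 was at least 4.93-fold lower (adjusted p = 0.00344), Snai3, a repressor of the Snail family, at least 4.04-fold lower (adjusted p = 0.000606), the collagenase Mmp13 at least 2.75-fold lower (adjusted p = 0.00716) and Dnajb13 at least 2.18-fold lower (adjusted p = 0.0158). Under normexp the values of all 6 turned positive, at 0.30, 0.32, 0.41, 0.41, 0.65 and 0.81 for Spdef, Tnfaip8l3, Rnf225, Snai3, Mmp13 and Dnajb13, and none passed. The call of Spdef also ended without female vehicle 1, female vehicle 3, female dexamethasone 1 or female dexamethasone 2 (adjusted p up to 0.0855), and that of Dnajb13 without female vehicle 1 (0.0619).

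Promoter sequence was set beside the rises because the receptor's palindromic element has a known form. The element searched was GNACA, 3 bases of any kind and TGTNC, which reads the same on both strands. RefSeq promoters (GRCm38.p6), reaching 250 bases before to 50 after a start, were matched to 11710 of the 14726 named genes. The element occurred in 0.475% of all 32851 promoters of the table and in 55 of the 11710 matched genes (0.47%). It occurred in 7 of 816 matched risers (0.858%) and in 3 of 925 matched fallers (0.324%). Among risers of at least 4-fold it occurred in 4 of 97 genes (4.12%), and among fallers of that size in 1 of 52 (1.92%). These 4 genes, Fam107a, Atp6v0a4, Slc10a6 and Map3k6, are shown because they join the element to a large rise. Each sequence is written along its gene's strand, and capitals mark the match.
Fam107a (chr14:8309730-8310029, minus strand): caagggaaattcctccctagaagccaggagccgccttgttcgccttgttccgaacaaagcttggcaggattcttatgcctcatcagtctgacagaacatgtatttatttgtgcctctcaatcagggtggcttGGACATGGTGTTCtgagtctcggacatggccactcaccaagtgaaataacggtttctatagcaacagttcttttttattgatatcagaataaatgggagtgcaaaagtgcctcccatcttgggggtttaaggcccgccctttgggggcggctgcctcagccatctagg
Atp6v0a4 (chr6:38124537-38124836, minus strand): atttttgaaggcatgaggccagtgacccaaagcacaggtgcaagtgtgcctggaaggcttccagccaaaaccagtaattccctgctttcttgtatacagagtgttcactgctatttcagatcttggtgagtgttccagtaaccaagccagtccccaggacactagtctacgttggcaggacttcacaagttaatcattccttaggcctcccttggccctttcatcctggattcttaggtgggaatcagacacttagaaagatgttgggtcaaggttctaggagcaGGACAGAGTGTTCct
Slc10a6 (chr5:103629354-103629653, minus strand): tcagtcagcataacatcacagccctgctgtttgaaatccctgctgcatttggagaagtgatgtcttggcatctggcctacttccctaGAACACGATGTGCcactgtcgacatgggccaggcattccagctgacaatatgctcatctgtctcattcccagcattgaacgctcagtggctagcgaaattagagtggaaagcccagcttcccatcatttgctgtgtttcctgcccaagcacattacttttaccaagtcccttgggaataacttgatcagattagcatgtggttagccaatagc
Map3k6 (chr4:133240568-133240867, plus strand): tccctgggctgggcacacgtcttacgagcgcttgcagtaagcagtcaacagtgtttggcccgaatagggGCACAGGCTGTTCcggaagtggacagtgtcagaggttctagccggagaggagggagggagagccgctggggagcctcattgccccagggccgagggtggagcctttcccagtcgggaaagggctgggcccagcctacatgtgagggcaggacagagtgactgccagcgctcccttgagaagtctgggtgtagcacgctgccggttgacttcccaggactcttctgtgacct

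Counted from the start, the first base of the match was -118 in Fam107a, -163 in Slc10a6, -181 in Map3k6 and 35 in Atp6v0a4. Fam107a, an actin-associated protein, was at -8.40, -7.02 and -7.23 under vehicle and at 1.83, 2.17 and 3.33 under dexamethasone. No vehicle array was above background for it, and it was at least 477-fold higher (adjusted p = 5.05e-05). Map3k6, a stress-activated kinase, was at -0.64, -1.11 and -1.19 under vehicle and at 1.84, 1.28 and 2.95 under dexamethasone. Its groups did not overlap, and it rose by 3.01 ± 0.35 (adjusted p = 0.000766). Slc10a6 was at -6.35, -6.51 and -6.91 under vehicle and at -3.27, -3.52 and -1.53 under dexamethasone, with dexamethasone 3 the highest. Atp6v0a4 was at -8.43, -8.49 and -8.51 and then at -2.05, -3.15 and -3.44, so that every dexamethasone array was far above the vehicle arrays. The other risers with the element were Serpina3c (1.45), Car14 (1.30) and Amy1 (0.98), whose adjusted p under normexp was 0.078, 0.0904 and 0.0879. Of the 13 risers on the list of known receptor targets that had a promoter entry, none held these letters in this window.

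The largest falls included a peroxisomal thioesterase, blood-cell and innate immune genes, clock output and sterol synthesis. Acot3 encodes an acyl-CoA thioesterase. Its levels were 2.09, 2.40 and 1.81 under vehicle and -3.02, -1.90 and -2.95 under dexamethasone. The groups were far apart, and the fall was -4.73 ± 0.80 (adjusted p = 0.00489). Rnf186, a ubiquitin ligase, went from 3.24, 1.63 and 3.31 to -1.37, -1.12 and -3.13. It fell by 4.60 ± 0.84 on the log2 scale (adjusted p = 0.00693), and the groups did not overlap although each held an array apart from its pair. Without female dexamethasone 3 the fall was -3.97. The Acot3 probe lies on chromosome 12 at 82054675 to 82054734 and the Rnf186 probe on chromosome 4 at 138346565 to 138346624 (mm7).

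Neighbouring Acot genes on chromosome 12 moved in opposite directions. Acot1 was at 1.85, 3.75 and 1.04 under vehicle and at 4.65, 5.10 and 4.96 under dexamethasone. It rose by 2.69 ± 0.54 (adjusted p = 0.0097; by 2.10 without female vehicle 3), while Acot4 fell by 1.60 ± 0.33 on the log2 scale (adjusted p = 0.0115). Acot2 differed by -0.47 (adjusted p = 0.281). These genes are close paralogs, and how far their probes cross-hybridize was not tested. With the 6 female arrays fitted alone the adjusted p of Acot1 was 0.059.

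Zbp1, a sensor of Z-form nucleic acid, went from 2.39, 2.63 and 3.08 to -0.94, -0.90 and -0.83. All dexamethasone arrays lay below all vehicle arrays, and the fall was -3.59 ± 0.31 (adjusted p = 0.000182). Nfe2, an erythroid and platelet transcription factor, went from -1.49, -0.80 and -0.18 to -4.89, -5.10 and -5.11. The fall was -4.21 ± 0.39 (adjusted p = 0.00027), but -1.88 under normexp, where its adjusted p was 0.186. Dbp, a clock output factor, went from 7.29, 6.85 and 7.02 to 4.09, 4.02 and 3.05. It fell by 3.34 ± 0.26 on the log2 scale (adjusted p = 0.000114), and no vehicle array came near the dexamethasone arrays. The Zbp1 probe lies on chromosome 2 at 172950998 to 172951057 and the Dbp probe on chromosome 7 at 41886169 to 41886228 (mm7).

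Falls with low spread reached other kinds of protein. Eepd1, an endonuclease-domain protein, fell by 2.24 ± 0.17 on the log2 scale (adjusted p = 0.000114). Dsp, desmoplakin of the desmosome, fell by 1.85 ± 0.15 on that scale (adjusted p = 0.000117). Tnfrsf19, a receptor of the TNF family, fell by 3.17 ± 0.26 (adjusted p = 0.000142), and its adjusted p under normexp was 0.055.

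Interferon-induced genes fell as a group. Of 26 tested, 21 fell, none rose and 5 did not pass, with a median of -1.13 beside 0.02 for all genes. The share that fell was 80.8%, against 6.88% of all genes. Ifit1, which binds viral RNA, was at -0.78, 0.59 and -0.19 under vehicle and at -3.15, -2.81 and -3.81 under dexamethasone. The groups did not overlap, and the fall was -3.13 ± 0.33 (adjusted p = 0.00041), which under normexp reached only an adjusted p of 0.056. Ifit3 fell by 2.27 ± 0.20 on the log2 scale (adjusted p = 0.000202), and the ubiquitin-like protein Isg15 fell by 1.80 ± 0.24 (adjusted p = 0.00143). Without 1 array the list's count was 14 to 20, and 13 of the 21 genes passed in all 12 such fits. Under normexp 9 fell.

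Some of the genes that fell lie side by side. The 14726 named genes were put in the order of their RefSeq positions along the chromosomes. In that order 42 runs of at least 3 neighbours moved the same way, 14 upward and 28 downward, with 141 genes. These runs were looked for after the gene values had been seen. Of the 10 runs of at least 4 genes, 9 fell. The longest, on chromosome 17, was H2-DMa, H2-DMb2, H2-DMb1, Psmb9, Tap1, Psmb8 and Tap2, the antigen-processing part of the major histocompatibility complex, with a median of -1.28. Psmb9, an immunoproteasome subunit, was at 3.71, 3.60 and 3.76 under vehicle and at 2.27, 2.12 and 2.11 under dexamethasone. Its fall was -1.52 ± 0.15 (adjusted p = 0.000328). Chromosome 5 held Abcg3 with 4 guanylate-binding proteins, Gbp8, Gbp9, Gbp4 and Gbp6, with a median of -1.16. The same chromosome held Oas1c, Oas1b, Oas1f and Oas1a, of a family known for sensing double-stranded RNA, with a median of -0.94. On chromosome 19, Ifit2, Ifit3, Ifit1, Slc16a12 and Pank1 had a median of -1.44, and on chromosome 7 Trim6, Trim34a, Trim12a and Trim12c had one of -1.08. In the chromosome 17 run, H2-DMa, Psmb8 and Tap2 lost their calls in 4, 3 and 6 of the 12 fits without 1 array, and 2 of the 7 genes passed under normexp. No Oas1 gene passed in all 12 fits, and Oas1b passed in 3. Trim6 lost its call in 10 of the 12. All 5 genes of the Gbp run and all 5 of the Ifit run passed in all 12. Under normexp, however, none of the Gbp run passed and 3 of the Ifit run did. Of the Oas1 run 1 gene passed under normexp, and of the Trim run 1 did. Members of the Gbp, Oas1 and Trim runs are close paralogs whose probes may read one another, so the number of separate genes that fell is uncertain.

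The single run of 4 that rose was Srsf4, Epb41, Ythdf2 and Gmeb1 on chromosome 4, with a median of 0.85. Shorter rising runs included Rbm19, Sdsl and Sds on chromosome 5 (2.21), with a pair of neighbouring serine dehydratase genes, and Kctd6, Acox2 and Fam107a on chromosome 14 (1.36). In these, Rbm19 lost its call in 9 of the 12 fits without 1 array, Epb41 in 5 and Gmeb1 in 4. Under normexp 0 of the 4 genes of the Srsf4 run kept their call. In the Rbm19 run 2 of 3 kept it, and in the Kctd6 run 1 of 3. Of the 45 genes in the 10 longest runs, 25 passed in all 12 fits without 1 array and 9 under normexp.

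**Figure D3:**
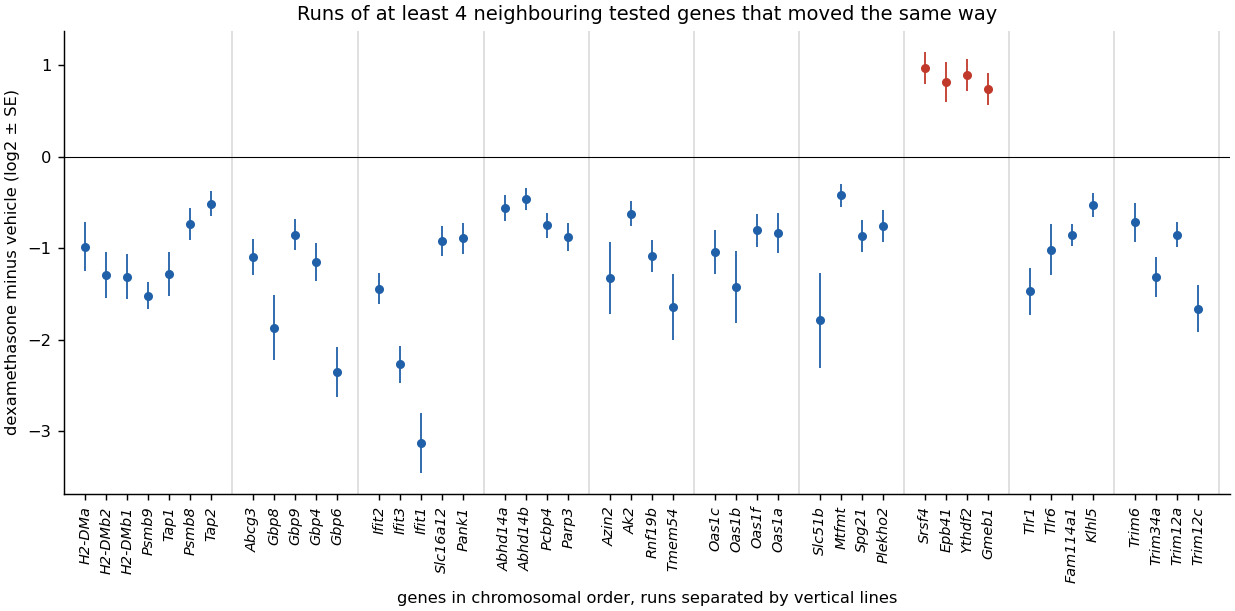
Change under dexamethasone in females (vertical axis, log2, with standard errors) for the genes of the 10 runs of at least 4 neighbours, in chromosomal order with grey lines between runs. Points below 0 fell and points above 0 rose; 9 runs lie below 0, and the run of Srsf4, Epb41, Ythdf2 and Gmeb1 lies above it.

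The promoters of falling genes were searched for the interferon element, GAAA, 2 bases of any kind and GAAA, on both strands. It occurred in 3.44% of all promoters of the table and in 3.89% of matched genes tested. It occurred in 7.35% of matched fallers and 4.29% of matched risers. Among fallers of at least 4-fold it occurred in 10 of 52 genes (19.2%), among risers of that size in 7 of 97 (7.22%), and among interferon-induced genes that fell in 9 of 18. The promoters of Ifit1 and of Cxcl10, a chemokine that draws T cells, are shown as members with large falls, with capitals on each match.
Ifit1 (chr19:34640639-34640938, plus strand): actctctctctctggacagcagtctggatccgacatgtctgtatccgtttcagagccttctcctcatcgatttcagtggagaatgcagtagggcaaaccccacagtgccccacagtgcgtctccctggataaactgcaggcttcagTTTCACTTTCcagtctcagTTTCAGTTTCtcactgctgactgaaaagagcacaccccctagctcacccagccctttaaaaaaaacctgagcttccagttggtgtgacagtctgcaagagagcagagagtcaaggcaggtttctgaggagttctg
Cxcl10 (chr5:92348840-92349139, minus strand): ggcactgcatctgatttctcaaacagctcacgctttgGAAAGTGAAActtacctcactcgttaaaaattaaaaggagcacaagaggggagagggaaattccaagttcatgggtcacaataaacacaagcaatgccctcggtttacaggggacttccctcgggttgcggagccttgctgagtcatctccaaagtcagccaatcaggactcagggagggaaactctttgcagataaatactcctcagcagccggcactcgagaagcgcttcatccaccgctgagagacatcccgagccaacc

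Counted from the start, the first base of the match in Cxcl10 was -213. Ifit1 held 2 matches, both nearer to its start. Cxcl10 went from 0.65, 1.01 and 0.57 to -1.56, -1.56 and -3.67. The groups did not overlap, with dexamethasone 3 the lowest, and the fall was -3.01 ± 0.51 (adjusted p = 0.00489) and -2.30 without that array.

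Other inflammatory genes fell more unevenly. Of 25 genes of inflammatory cytokines and NF-kB signalling, 8 fell and 3 rose, with a median of -0.54. The count of 11 was 7 without female vehicle 1, and 2 under normexp. The risers included the receptor Il1r1 (2.27), and the interleukin receptor Il6ra rose by 1.81. Of 28 cytokine receptors and JAK-STAT genes 3 rose and 3 fell, 10.7% each way and near the shares over all genes. That count of 6 was 3 without female vehicle 1, female dexamethasone 1 or female dexamethasone 2 and 2 under normexp. Of 22 acute phase proteins 3 rose (13.6%) and none fell, and 1 passed without female vehicle 1. Of 20 genes of MHC class I and II, 6 fell and none rose (median -0.62). That count was 3 without female vehicle 1, female dexamethasone 1 or female dexamethasone 2, and 1 under normexp.

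Cell type markers are given because bulk RNA cannot tell fewer cells of a type from less RNA per cell. Of 10 markers of B cells and plasma cells tested, 6 fell and none rose, with a median of -1.36. Their summed level was 0.22 to 1.33 under vehicle and -0.71 to -0.14 under dexamethasone, with no overlap. Ms4a1, the B cell surface protein CD20, fell by 2.33 ± 0.43 (adjusted p = 0.00692), and Bank1, a B cell scaffold, fell by 1.69 ± 0.25 (adjusted p = 0.0025). Both were dim, with adjusted p of 0.438 and 0.849 under normexp. With that setting none of the 10 passed, and their median was 0.13. The count was 2 without female vehicle 1 or female dexamethasone 2 and 3 without female vehicle 3 or female dexamethasone 1. The part of B cell RNA in the falls of MHC class II genes was not tested. Of 14 Kupffer cell markers 1 rose (7.14%, beside 6.79% of all genes). Their summed level overlapped between groups, at 7.29 to 7.92 and 6.77 to 7.67. Without female dexamethasone 3 none rose and 3 fell, without female vehicle 3 none rose and 1 fell, and none passed without female vehicle 1 or under normexp. Of 18 T and NK cell markers 2 rose (11.1%) and none fell. In 11 of the 12 fits without 1 array 1 rose, without female vehicle 2 a further 2 fell, and under normexp none passed. The summed level of these markers was 1.63 to 2.15 under vehicle and 1.37 to 1.70 under dexamethasone. None of the 8 neutrophil markers tested passed.

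Many genes of amino acid breakdown rose. The list of amino acid breakdown with the urea cycle held 23 tested genes, of which 11 rose (47.8%, against 6.79% of all genes), none fell and the median was 0.54. Tdo2, which opens tryptophan breakdown, was at 3.86, 4.71 and 3.78 under vehicle and at 6.24, 6.34 and 6.89 under dexamethasone. Every dexamethasone array was higher, and the rise was 2.38 ± 0.27 (adjusted p = 0.000638). The serine dehydratases Sds and Sdsl rose by 2.33 ± 0.40 (adjusted p = 0.00489) and 2.21 ± 0.19 (adjusted p = 0.000182). Aass, which opens lysine breakdown, rose by 2.09 ± 0.22 (adjusted p = 0.00044). Of the urea cycle enzymes, Cps1 rose by 0.93 and Ass1 by 0.78, with adjusted p of 0.149 and 0.238 under normexp. Slc25a15, the mitochondrial ornithine carrier, rose by 2.60. In all, 9 of the 11 passed in every fit without 1 array and 5 under normexp.

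Part of the gluconeogenesis list rose. Of 14 genes, 6 rose and none fell (median 0.55), and under normexp 3 rose. Gpt2, which turns alanine into pyruvate, rose by 1.78 ± 0.21 (adjusted p = 0.000744), pyruvate carboxylase (Pcx) by 0.68 ± 0.12 (adjusted p = 0.00561; 0.384 under normexp) and the transcription factor Foxo1 by 1.49 (adjusted p = 0.00173). Pck1, the cytosolic carboxykinase, differed by 0.41 ± 0.15 (adjusted p = 0.0971) and G6pc, glucose-6-phosphatase, by 1.78 ± 0.58 (adjusted p = 0.0669), so neither passed. G6pc was at 4.55, 4.42 and 3.63 under vehicle and at 5.76, 6.01 and 6.18 under dexamethasone, with no overlap, and it passed with the 6 female arrays fitted alone (adjusted p = 0.0185) and without male dexamethasone 3 (0.0185) or male dexamethasone 2 (0.0453). Ppp1r3c, which targets a phosphatase to glycogen, rose by 2.99 (adjusted p = 0.0016). It was 1 of 3 risers, beside 3 fallers, among 19 genes of insulin signalling and glycogen. That was 15.8% each way, beside 6.79% and 6.88% of all genes. The list's count of 6 was 3 without female vehicle 1 or female vehicle 3 and 1 under normexp.

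Many genes of sterol synthesis and some of fatty acid synthesis fell, and some lipid droplet genes rose. Of 22 genes of cholesterol synthesis and uptake, 11 fell, with a median of -0.96. The 1 that rose was Insig2. Mvd, mevalonate diphosphate decarboxylase, was at 1.53, 2.95 and 3.25 under vehicle and at 0.04, -1.05 and -1.25 under dexamethasone. The groups did not overlap, with vehicle 1 the lowest of its group, and the fall was -3.33 ± 0.42 (adjusted p = 0.00117). Hmgcs1 fell by 2.16 ± 0.35 and Fdft1, squalene synthase, fell by 1.94 ± 0.33 on the log2 scale, with adjusted p of 0.00392 and 0.005. Here normexp kept 11 of the 12 calls, and 9 passed in every fit without 1 array.

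Of 21 genes of fatty acid and triglyceride synthesis, 5 fell and 1, Lpin1, rose (median -0.38). Fasn, fatty acid synthase, was at 7.72, 8.28 and 8.21 under vehicle and at 7.06, 6.93 and 6.93 under dexamethasone. It fell by 1.10 ± 0.20 (adjusted p = 0.0071), and Elovl6, which lengthens fatty acids, fell by 1.80 ± 0.37 (adjusted p = 0.0115). Of 23 lipid droplet and lipase genes, 7 rose and none fell (median 0.29). Cidec, a droplet fusion protein, rose by 1.95 ± 0.25 (adjusted p = 0.00119) and the lipase Pnpla2 by 1.54 ± 0.23 (adjusted p = 0.00281). The count of 7 was 4 under normexp. Of 7 adipocyte markers tested, 2 rose (Cidec, on both lists, and Fabp4), none fell and 5 did not pass, with a median of 0.05. The call of Fabp4 ended under normexp (adjusted p = 0.0674) and with the 6 female arrays fitted alone (0.0822). It also ended without female vehicle 1 (0.0599) or female vehicle 3 (0.0622). The summed level of the 7 markers was 3.37 to 3.67 under vehicle and 4.14 to 5.01 under dexamethasone, with no overlap. The part of adipocyte RNA was not tested. Of 21 genes of fatty acid oxidation and ketogenesis, 3 rose (14.3%) and 4 fell (19.0%), with a median of 0.05. Of all genes 6.79% rose and 6.88% fell. That list's count of 7 was 3 without female vehicle 1 or female vehicle 3, 4 without female dexamethasone 3 and 3 under normexp.

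The clock list changed in both directions. Of 18 clock genes 6 rose and 5 fell. Beside Arntl, its partner Clock rose, from -0.39, 0.52 and -0.16 to 1.57, 2.08 and 1.78, by 1.82 ± 0.23 (adjusted p = 0.00111). Per3 fell by 2.46 ± 0.30 on the log2 scale (adjusted p = 0.00102), and its adjusted p under normexp was 0.532. The period genes Per1 and Per2 differed by 1.24 (adjusted p = 0.0784) and -0.61 (adjusted p = 0.309), and without female vehicle 1 Per1 passed at 1.79 (adjusted p = 0.00891). The count of 11 was 7 without female vehicle 1 and 6 under normexp. All livers were taken at a single time after injection, and the time of day was not analysed here.

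DNA replication genes split. The minichromosome maintenance family, the helicase that opens DNA, had the highest share of fallers of 185 symbol families of at least 10 genes: 6 of its 10 genes fell (60.0%, median -1.05). Not all symbols with these letters belong to the helicase. Mcm6 went from 2.58, 2.69 and 2.20 to 0.99, 0.57 and 1.48, and fell by 1.48 ± 0.25 (adjusted p = 0.00453). Mcm5 fell by 2.02 ± 0.26 (adjusted p = 0.00128), with an adjusted p of 0.102 under normexp, while Mcm7 differed by 0.22 (adjusted p = 0.447). Rrm2, the small subunit of ribonucleotide reductase, moved the other way, from -1.80, -0.99 and -2.06 to 1.23, 1.49 and 1.40. It rose by 2.99 ± 0.37 (adjusted p = 0.00108), with no overlap. It was the 1 riser among 23 cell cycle genes, of which 7 fell (median -0.58), and under normexp 1 rose and 3 fell.

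Other families followed at lower shares. Of 11 Parp genes 5 fell (45.5%), of 10 Lrp genes 4 fell, and of 11 Irf genes, the interferon regulatory factors, 4 fell and 1 rose. Of 11 caspases 4 fell (36.4%), and of 25 apoptosis genes 6 fell and none rose, though that count was 1 without any of female vehicle 1, female vehicle 2, female dexamethasone 1 or female dexamethasone 2, 3 without female vehicle 3 and 2 under normexp. The highest shares of risers were 3 of 10 Zscan zinc fingers, 3 of 11 genes with symbols in Trp (27.3%) and 4 of 16 Dhx helicases. Of the Trp genes 2 fell (18.2%), and of the Dhx helicases 1 fell. The Serpina protease inhibitors, with 4 of 18 (22.2%), and the Psmd proteasome subunits, with 3 of 14 (21.4%), came lower among the 10 highest. Of the Serpina genes 1 fell. Over all genes 6.79% rose and 6.88% fell. The families named were picked for the highest shares among the 185. Whether their shares exceed what such a choice gives by chance was not tested. No member changed in 20 of the 185 families.

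Structural and growth lists were less steady. Of 26 keratins and junction genes 8 fell and none rose (median -0.49), among them a keratin of hepatocytes, Krt18, which fell by 1.42 (adjusted p = 0.00477). That count was 4 without female vehicle 1, female vehicle 3 or female dexamethasone 1, 5 without female dexamethasone 2 and 4 under normexp. Of 30 genes of ribosome biogenesis and polymerase I, 8 rose and none fell (median 0.40). Polr1a, the large subunit of that polymerase, rose by 0.87 ± 0.14 (adjusted p = 0.00393), with an adjusted p of 0.193 under normexp. The count of 8 was 14 without female dexamethasone 3, 4 without female vehicle 1 or female dexamethasone 1, 5 without female vehicle 2, female dexamethasone 2 or male vehicle 2, and 1 under normexp. Of 24 hepatocyte transcription factors 5 rose and none fell, among them Hnf4a by 1.02 ± 0.13 (adjusted p = 0.0014; 0.111 under normexp). Under normexp 1 of the 24 passed.

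In several large lists no gene passed: 30 cytosolic ribosomal proteins (median 0.13), 30 genes of the respiratory chain (0.09), 20 heat shock genes (-0.03) and 16 genes of bile acid synthesis and transport (0.04). Over all genes 5478 had an unadjusted p below 0.05. Without 1 array at most 1 gene passed in the lists of the respiratory chain, heat shock and bile acids.

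**Figure D4:**
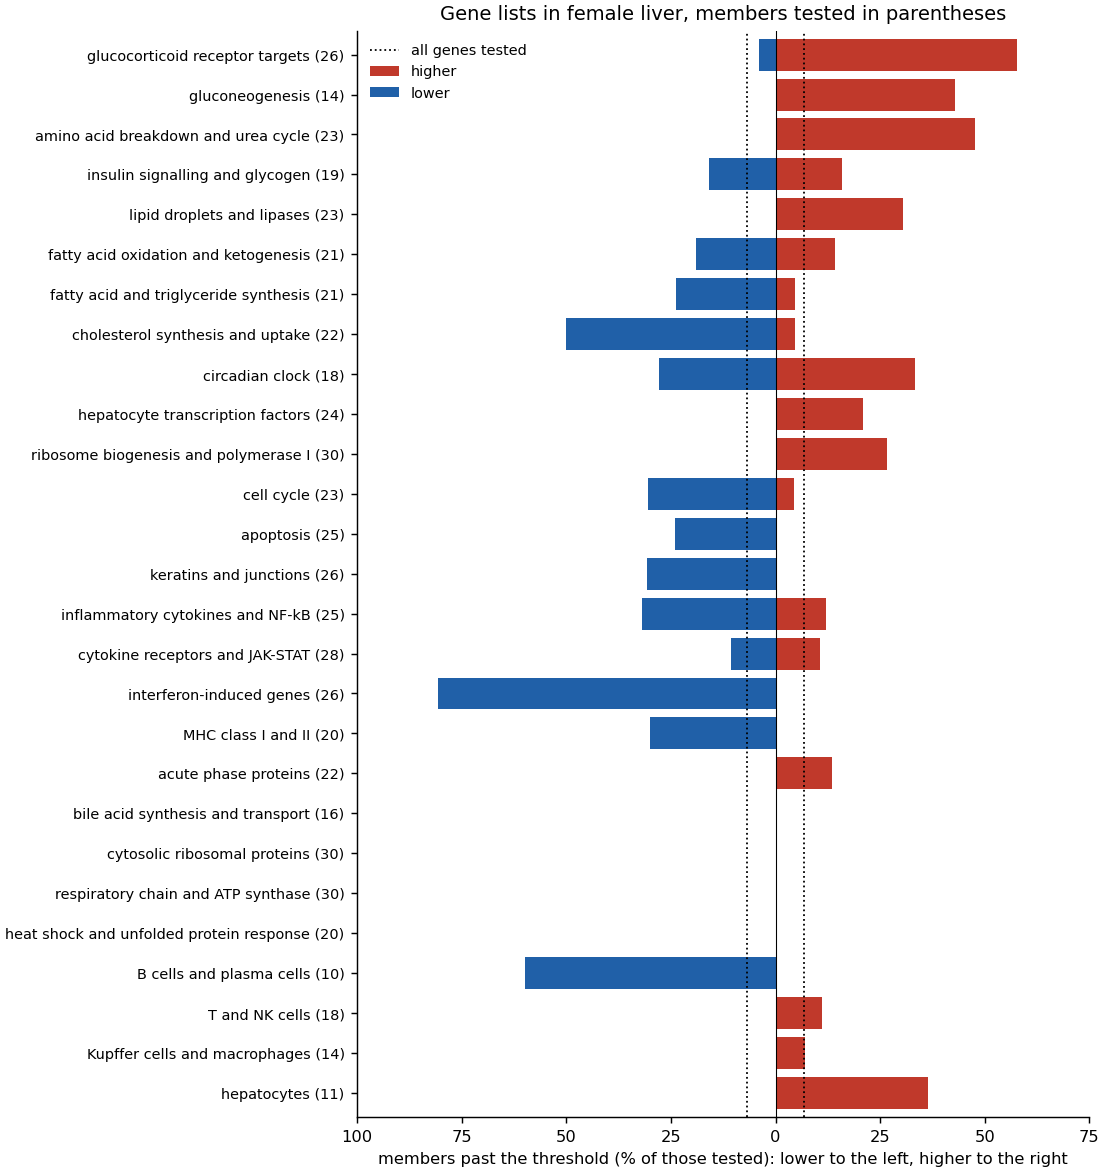
Share of the tested members of 27 gene lists that rose (to the right) or fell (to the left) in females, in percent, with the number tested in parentheses. Dotted lines mark the shares over all genes, 6.79% higher and 6.88% lower; the interferon-induced list reaches 80.8% lower and the receptor targets 57.7% higher.

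The female response was set beside that of males, which used no array in common but the same estimate of spread. Of the 1313 female risers, 925 (70.4%) also rose in males, which was 45.8% of the 2020 male risers. Of the 1331 female fallers, 1078 (81.0%) also fell in males, 46.1% of the 2339 male fallers. For comparison, of all 19339 genes tested 2020 rose and 2339 fell in males. The sign was shared by 1287 of the female risers and 1312 of the female fallers. Over all genes tested the sharing of sign was not counted. Hoxa2, a developmental homeobox gene, was the 1 called gene with opposite directions, at 0.50 in females (adjusted p = 0.0397) and -0.64 in males (adjusted p = 0.00904), and its difference did not pass (adjusted p = 0.282). Its female call ended in 9 of the 12 fits without 1 array, every fit without 1 female array among them (adjusted p up to 0.125). Hoxa2 was dim and did not pass in females under normexp either (0.92, adjusted p = 0.438).

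The direct test of the difference between the sexes passed for 1 gene of 19339 (0.00517%), and 1033 genes had an unadjusted p below 0.05. That gene was Tg. In females it was at -8.07, -8.46 and -7.81 under vehicle and at -5.05, -4.72 and -4.60 under dexamethasone. The rise was 3.32 ± 0.21 in females and 7.22 ± 0.21 in males, a difference of -3.90 ± 0.29 (adjusted p = 0.00112). Tg was not above background on any female vehicle array, so its female rise depends on signals near the floor. Mvd fell by 3.33 in females and differed by -0.63 in males, but the difference between the sexes did not pass (adjusted p = 0.47). The cholesterol list had 11 fallers in females and 4 in males, and whether these counts differ was not tested. Without female dexamethasone 3 the test passed for 32 genes, without male dexamethasone 3 for 5 and without male vehicle 1 for 3.

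**Figure D5:**
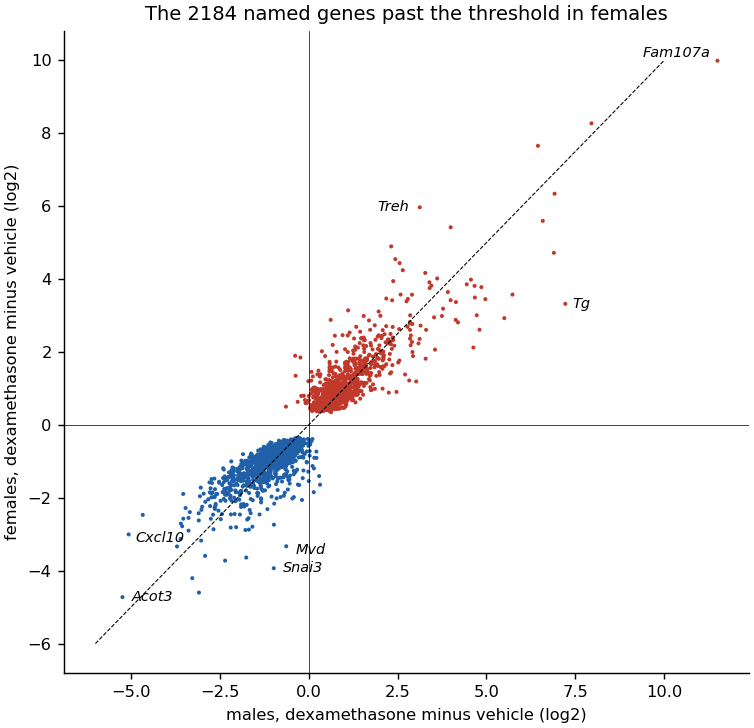
Change under dexamethasone in females (vertical axis, log2) against that in males (horizontal axis, log2) for the named genes that changed in females, with red for rises and blue for falls. The dashed line marks equal change; most points lie in the quadrants of shared sign, and Tg lies at 3.32 in females and 7.22 in males.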

How the data were processed

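Deposited were scanner tables of spot intensities, made by the authors with Agilent Feature Extraction 9.5 per the submitters' processing notes. The column used was the processed signal, which had already been corrected for background and spatial trend by that software, per the file headers. Of 45018 spots 1639 were controls and were left out, as were spots with outlier flags, and 41174 probes remained. Signals were taken to log2 and scaled to each array's 75th percentile. Probes were kept that the scanner flag put above background throughout 1 or more of the 4 groups, with the brightest probe per gene. Names came from the files and a RefSeq table. Coordinates of probes are those of the array design (mm7); promoters are on GRCm38.p6, and no coordinate was converted.

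A model of 4 group means was fitted to 12 arrays with limma 3.58.1 in R 4.3.3 (8 residual degrees of freedom, any size of change). The unit was the animal. The fit was tested on simulated data in which only a small set of genes was changed, far fewer than passed here. Of genes given a 4-fold rise in this comparison (19339 genes) 78% were recovered, and of those given a 2-fold rise 52%. For falls of these sizes the shares were 86% and 48%. Because of that setting these shares do not give the recovery in the real data. Named were the 30 largest rises and falls without overlap, the smallest p-values, genes above background in 1 group alone, members of gene lists, symbol families and genes that differed between the sexes. Neighbouring runs, Gadd45b, Igfbp1 and arrays that stood apart were singled out after their values were seen. The members and lists were chosen with earlier results of these data known. The labels give no pairing of the females by replicate number. Deviations of same-numbered arrays from their group means correlated at 0.05, 0.33 and -0.11. With 3 arrays per group these values cannot settle whether the numbers pair the animals. Alternatives covered normalization, background, filter, probe choice, slide, block, weights and single arrays.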

Additional observations from a re-analysis of the deposited data

Results flagged for a closer look

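Tg, the gene of thyroglobulin, was the 1 gene whose response differed between the sexes by the direct test. It rose by 3.32 in females and by 7.22 in males, a difference of -3.899 on the log2 scale (limma, adjusted p = 0.00112, n = 3 arrays in each group). It was higher under dexamethasone on 3 of 3 female arrays, and no female vehicle array was above background for it.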

How the results depend on the processing

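The count of 2644 genes changed in females became 536 with normexp, 1180 with the 6 female arrays fitted alone, 4036 with array weights and 255 against a fold threshold of 1.5. Without 1 array it ranged from 1504 to 2568. With the replicate block it was 1370, and the labels give no pairing by replicate number. Quantile normalization, the other filters, the mean of probes, the slide as a block, a trended variance and the series matrix values gave counts within 1.5 times the reported one.

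The difference between the sexes, 1 gene, was found for 0 genes with normexp, with probes above background on all 6 female arrays and with probes averaged per gene. It was found for 2 genes with the replicate block, 3 with array weights and 2278 without a filter on dim probes, of which 2173 were genes the filter removes. Without 1 array it ranged from 1 to 32.

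Under normexp the sign turned for Abcg3 (0.38), Dnajb13 (0.81), Mmp13 (0.65), Oas1b (0.64), Rnf225 (0.41), Snai3 (0.41), Spdef (0.30), Tnfaip8l3 (0.32) and Trim6 (0.53), none of which passed there. For values that had not passed, the sign turned for Alb with normexp (-0.026) and quantile normalization (-0.054), and for Nr3c1 with the mean of its probes (0.014). Without 1 array Nr3c1 ranged from -0.264 to 0.048, the highest without female dexamethasone 3. Normexp compresses dim signals by its construction; beyond that the causes were not tested. With 3 arrays a group and many probes near background, falls of dim genes are the least certain values.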

Other observations

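Transcription factors and carriers not described above also moved. The receptor target Klf9 rose (adjusted p = 0.000676). Of 21 Krueppel-like factors and relatives 4 rose (19.0%, against 6.79% of all genes) and 1 fell (4.76%, against 6.88%). Of 22 amino acid carriers 4 rose (18.2%) and 1 fell (4.55%). Of 18 genes of the Hippo pathway and its targets 3 rose (16.7%) and none fell. The largest of those 3 was Ccn2, a secreted matrix protein, at 2.81. Under normexp each of these lists kept 1 of its calls, out of 5, 5 and 3.

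Among genes of known male predominance in liver, a pair stood apart on the female arrays numbered 2, which shared slide 1. They were picked after their values were seen. The steroid enzyme gene Hsd3b5 was at -1.24, 2.22 and -2.15 under vehicle and at -2.49, -0.21 and -2.83 under dexamethasone. The array numbered 2 was the highest in each group. Serpina4-ps1 was at -1.42, 1.60 and -2.50 under vehicle and at 1.10, 2.74 and -0.22 under dexamethasone, again with the second array highest. Neither gene passed the test of dexamethasone in females (adjusted p = 0.402 and 0.276).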
